A study of Mus musculus with 14 samples.

Results

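The genes described here were 6 mouse globin genes, measured in 14 tissue sections from the day 13.5 embryo to the aged adult. They comprise 3 embryonic genes, the alpha-type Hba-x (ENSMUSG00000055609) and the beta-type Hbb-y (ENSMUSG00000052187) and Hbb-bh1 (ENSMUSG00000052217). The 3 adult genes were the alpha-type Hba-a2 (ENSMUSG00000069917) and the beta-type Hbb-bs (ENSMUSG00000052305) and Hbb-bt (ENSMUSG00000073940). They were chosen by symbol and not by level, and they are 6 of the 19465 genes listed for every section. A further adult alpha gene, Hba-a1, had 0 UMIs in the 6 sections whose tables list it, and the other tables do not list it. Whether the assay reads Hba-a1 was not tested, so that the 0 cannot be read as absence of expression. Hba-a2 stands here for the adult alpha type.

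Expression was measured with 10x Genomics Visium, in which probes hybridized to a formalin-fixed, paraffin-embedded section are captured on barcoded spots and counted as unique molecular identifiers (UMIs), 1 library per section. There were 6 sections, 1 per group, from untreated wild-type C57BL/6 mice purchased from the Jackson Laboratory: fetal livers at E13.5 and E14.5, leg bones at postnatal day 8 (P8) and 89 weeks, a leg bone of a 6-month adult decalcified in 0.5 M EDTA for 5 days, and an adult spleen. The other 8 came from a C1qa cross. Wild-type and C1qa knockout E14.5 fetal livers numbered 2 and 4 were littermates from heterozygous dams 2 and 4, and wild-type spleens 1 and 2 and C1qa knockout spleens 1 and 2 were from mice of 3 months. Levels are given as UMIs per 1000000 of the section (CPM). The targeted gene, C1qa, had 25.8 and 95.9 CPM in the wild-type fetal livers and 0.0595 and 0.0866 CPM in the knockout ones. The wild-type spleens had 218 and 269 CPM of it and the knockout spleens 0.0548 and 0.189 CPM. Spots over tissue were used where 1000 or more genes were detected, 589 to 2320 in each cross fetal liver, 491 and 854 in the purchased ones, 1012 to 1646 in each spleen, 1085 at P8, 932 at 89 weeks and 15 in the EDTA section. Depth over these spots ran from 4225805 to 56182915 UMIs, apart from 37167 in the EDTA section.

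Hemoglobin is a tetramer of alpha-type and beta-type globin chains. In the mouse embryo, primitive red cells made in the yolk sac enter the circulation carrying the embryonic chains Hba-x, Hbb-y and Hbb-bh1, while definitive red cells, made first in the fetal liver and later in marrow and spleen, carry the adult chains. In the beta cluster the embryonic genes lie nearer than the adult ones to a distal enhancer called the locus control region. Circulating primitive red cells still persist at the fetal stages sampled here and mature in the blood.

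In RefSeq on GRCm38.p6 (the assembly also called mm10, named in the submitters' notes), the beta cluster lies on the minus strand of chromosome 7, with Hbb-y at chr7:103851754-103853207, Hbb-bh1 at chr7:103841638-103843162, Hbb-bs at chr7:103826523-103827928 and Hbb-bt at chr7:103812524-103813923. The alpha cluster lies on the plus strand of chromosome 11, with Hba-x at chr11:32276600-32278116 and Hba-a2 at chr11:32296492-32297310. The 120 bases just before the start are shown for the genes with an entry, to let the embryonic and adult promoters be compared. Capitals mark matches on either strand to any of the motifs searched. The first was CACCC, the box bound by Kruppel-like factors such as Klf1. The next was CCAAT, the box found before many promoters and bound in part by NF-Y. The others were GATAA, which GATA factors bind, and a box for the basal machinery written ATANAA. Hbb-bh1 is named only.
Hbb-y, chr7:103853208-103853327, minus strand: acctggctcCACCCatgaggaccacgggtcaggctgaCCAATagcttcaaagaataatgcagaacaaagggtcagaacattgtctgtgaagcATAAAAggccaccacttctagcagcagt
Hbb-bs, chr7:103827929-103828048, minus strand: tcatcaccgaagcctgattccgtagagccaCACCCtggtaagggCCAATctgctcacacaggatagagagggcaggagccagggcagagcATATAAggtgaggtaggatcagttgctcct
Hbb-bt, chr7:103813924-103814043, minus strand: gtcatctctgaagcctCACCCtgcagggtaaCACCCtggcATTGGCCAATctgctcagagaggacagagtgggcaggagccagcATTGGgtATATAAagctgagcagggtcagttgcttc
Hba-x, chr11:32276480-32276599, plus strand: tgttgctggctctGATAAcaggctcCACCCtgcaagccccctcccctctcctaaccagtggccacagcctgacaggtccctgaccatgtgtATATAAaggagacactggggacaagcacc
Hba-a2, chr11:32296372-32296491, plus strand: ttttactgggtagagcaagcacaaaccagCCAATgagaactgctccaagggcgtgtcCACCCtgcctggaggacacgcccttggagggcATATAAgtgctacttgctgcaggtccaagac

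Each of the 5 stretches held a CACCC and an ATANAA match, and a CCAAT match was found in all but that of Hba-x. The ATANAA match began 28 bases before the start in Hbb-y, 29 in Hbb-bt and Hba-x, 30 in Hbb-bs and 31 in Hba-a2. Over 32851 RefSeq promoters, CACCC was in 31.7%, CCAAT in 21.3%, GATAA in 10.5% and ATANAA in 17.6% of stretches of that length. Hbb-bt had 2 CACCC matches. Hbb-bs and Hbb-bt are so alike in their coding sequence that the division of reads between them is uncertain.

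The embryonic genes were highest in fetal liver sections and gave few UMIs in postnatal marrow. Hbb-y, an embryonic beta-type chain of primitive red cells, was at 170 CPM at E13.5 and 40.5 CPM at E14.5 in the purchased fetal livers. In the E14.5 livers of the cross it was at 21.0 CPM in wild-type 2, 4829 CPM in wild-type 4, 57.1 CPM in knockout 2 and 171 CPM in knockout 4. Wild-type fetal liver 4 stood apart from every other section, 28.4-fold above the E13.5 liver and 230-fold above wild-type fetal liver 2.

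Wild-type fetal liver 4 and its littermate also differed from the other livers in the tissue on the section. Spots with at least 0.5% of their UMIs from a list of 12 hepatocyte genes, called hepatocyte-rich here, were 29.8% of those used in wild-type 4 and 62.6% in knockout 4, against 94.4% and 96.6% in litter 2 and all spots of the purchased livers. Globin UMIs took 5.24% and 6.95% of all UMIs in litter 4 and 16.5% to 20.3% in the other 4 livers. Globin results that rest on litter 4 are also given without it, and fewer cells of a type and less RNA per cell cannot be told apart in such spots.

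Hba-x, the alpha-type partner in embryonic hemoglobin, was at 72.5 CPM at E13.5 and 23.2 CPM at E14.5 in the purchased livers. In the cross livers it was at 33.7 CPM in wild-type 2, 1465 CPM in wild-type 4, 46.4 CPM in knockout 2 and 121 CPM in knockout 4. The order of the sections was led by wild-type 4 and knockout 4, as for Hbb-y, and the value in wild-type 4 was 20.2-fold that at E13.5.

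Hbb-bh1, the other embryonic beta-type gene, was at 116 CPM at E13.5 and 57.6 CPM at E14.5 in the purchased livers. It was at 7.52 CPM in wild-type 2, 148 CPM in wild-type 4, 23.3 CPM in knockout 2 and 167 CPM in knockout 4. Here wild-type 4 did not stand apart: it was 0.889 of knockout 4, whereas for Hbb-y it was 28.2-fold and for Hba-x 12.1-fold above that littermate.

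Embryonic transcripts were rare in marrow at P8 and 89 weeks. At P8 there were 24 UMIs of Hba-x, 12 of Hbb-y and 5 of Hbb-bh1, or 1.09, 0.546 and 0.228 CPM, among 21977622. At 89 weeks there were 4 UMIs of Hba-x, 0 of Hbb-y and 1 of Hbb-bh1. In the EDTA section all 3 were at 0, which at its depth allows up to 80.7 CPM (3 counts), so that levels like those of the E14.5 livers of litter 2 were not detectable there.

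The 4 spleens of the cross held more embryonic UMIs than the purchased adult spleen. Hba-x was at 8.03 CPM in wild-type spleen 1, 11.8 CPM in wild-type spleen 2, 6.89 CPM in knockout spleen 1 and 4.00 CPM in knockout spleen 2, against 0.131 CPM (2 UMIs) in the purchased spleen. Hbb-y was at 0.953, 9.94, 2.17 and 2.25 CPM in the same 4 spleens, and Hbb-bh1 at 5.47, 3.79, 3.87 and 2.68 CPM. The purchased spleen had 2 UMIs of Hbb-y and 12 of Hbb-bh1, but mice, feature table and software version differed from the cross, and these differences and the spleens cannot be told apart.

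**Figure D1:**
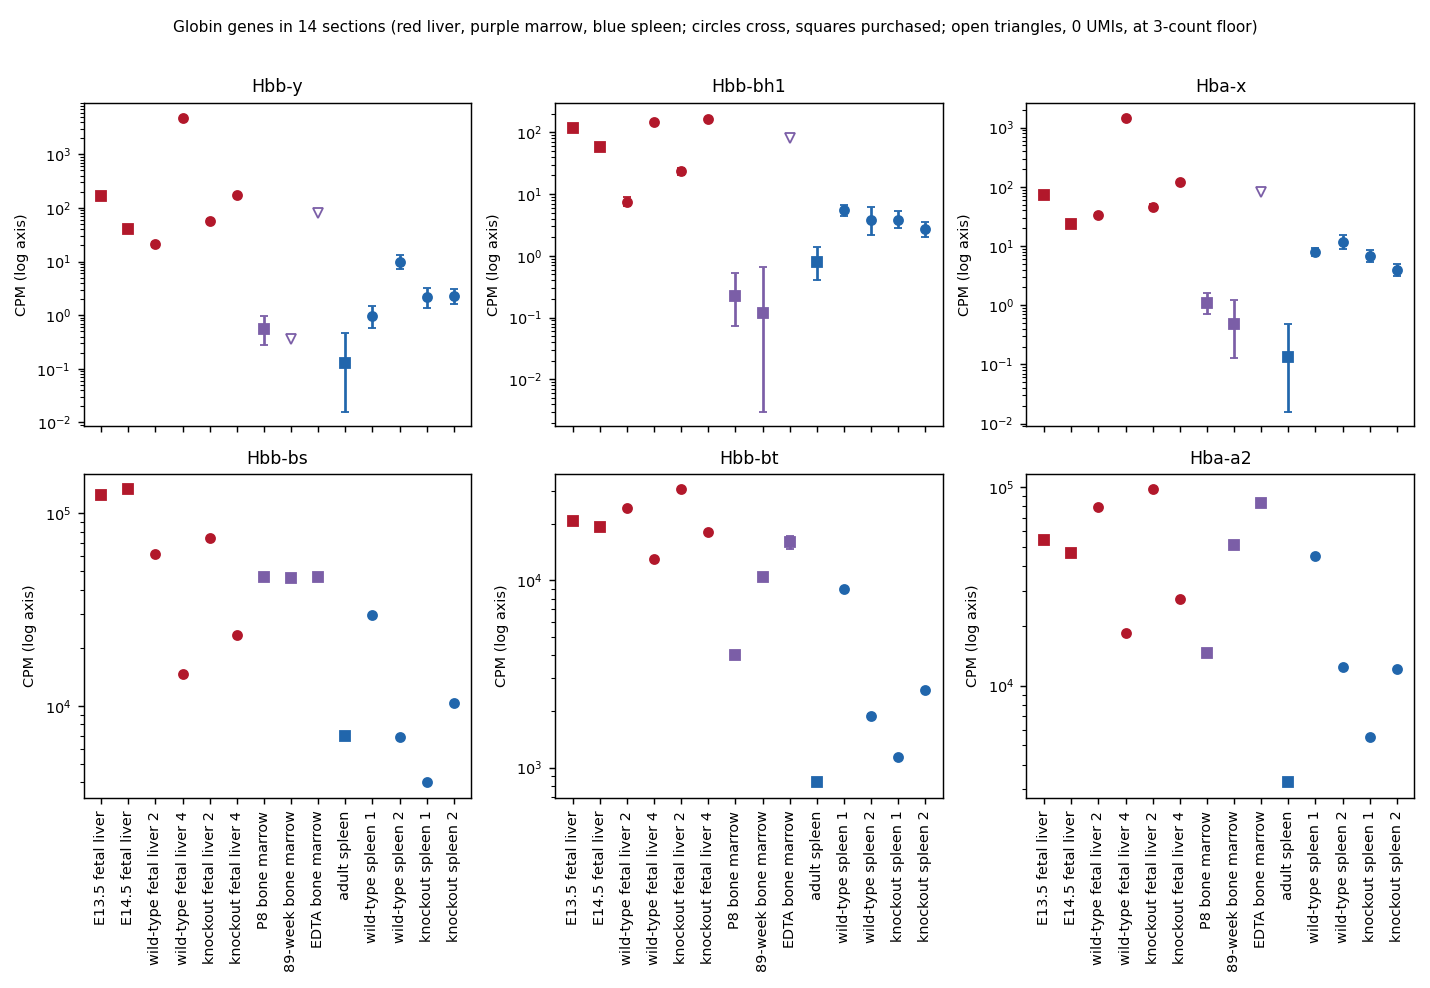
Level of each of the 6 globin genes in the 14 sections, in CPM on a log axis, with 95% counting intervals and with points coloured by tissue and open triangles for genes at 0. Hbb-y and Hba-x peaked in wild-type fetal liver 4, at 4829 and 1465 CPM, whereas Hbb-bs was lowest there among fetal livers, at 14613 CPM.

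The adult genes were detected in every tissue, with fetal livers of litter 4 low and wild-type spleen 1 high for their tissue. Hbb-bs, the major adult beta chain by UMIs here, was at 123686 CPM at E13.5 and 133231 CPM at E14.5, and at 61202, 14613, 74372 and 23411 CPM in wild-type 2, wild-type 4, knockout 2 and knockout 4 fetal livers. It was at 46814 CPM at P8, 46118 CPM at 89 weeks and 46843 CPM in the EDTA section. The 3 marrow sections thus lay within 1000 CPM of each other, the EDTA one with 15 spots. Their tissue was unlike, as cartilage and bone genes took 9.22% of UMIs at P8, 0.0274% at 89 weeks and 0.135% with EDTA. Whether levels within the marrow itself were alike was not tested.

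In spleen, Hbb-bs was at 7002 CPM in the purchased section, 29603 and 6857 CPM in wild-type 1 and 2, and 4003 and 10394 CPM in knockout 1 and 2. The highest spleen, wild-type 1, was above the fetal livers of litter 4, so that tissues overlapped for this gene. Hba-a2, the adult alpha chain, was at 53999 and 46531 CPM in the purchased livers and at 79027, 18334, 97706 and 27378 CPM in wild-type 2, wild-type 4, knockout 2 and knockout 4. It was at 14622 CPM at P8, 51342 CPM at 89 weeks and 83165 CPM with EDTA.

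The spleens held 3250 CPM of Hba-a2 in the purchased section and 45051, 12477, 5495 and 12099 CPM in wild-type 1, wild-type 2, knockout 1 and knockout 2. As for Hbb-bs, wild-type spleen 1 was the highest spleen. Hbb-bt, the minor adult beta chain by UMIs here, was at 20794 and 19233 CPM in the purchased livers and at 24473, 12947, 30634 and 18229 CPM in the cross livers in the same order. It was at 3979 CPM at P8, 10484 CPM at 89 weeks, 16009 CPM with EDTA, and from 840 CPM in the purchased to 8981 CPM in wild-type 1 among spleens.

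Shares within a globin family set the embryonic against the adult UMIs of the same section. The embryonic share of beta-globin UMIs, Hbb-y plus Hbb-bh1 over all 4 beta genes, was 0.198% at E13.5 (95% exact binomial interval 0.194 to 0.201%, for counting error only) and 0.0643% at E14.5 (0.0626 to 0.0660%). In the cross livers it was 0.0333% in wild-type 2, 15.3% in wild-type 4, 0.0765% in knockout 2 and 0.806% in knockout 4. The 3 other cross livers thus spanned 0.0333 to 0.806%, a range that holds the purchased E13.5 and E14.5 values.

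The Hba-x share of alpha-globin UMIs had the same order among the cross livers. It was 0.134% at E13.5 and 0.0499% at E14.5, and 0.0427% in wild-type 2, 7.40% in wild-type 4, 0.0475% in knockout 2 and 0.439% in knockout 4. In marrow it was 0.00747% at P8 and 0.000924% at 89 weeks, and 0.0209% (9 UMIs) over all in-tissue spots of the EDTA section. The spleens of the cross ran from 0.0178% in wild-type 1 to 0.125% in knockout 1, overlapping the livers of litter 2.

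The embryonic beta share in marrow was 0.00152% at P8 and 0.000209% at 89 weeks, the latter from 1 UMI, with no test at 1 section each. It was 0.0166% in wild-type spleen 1, 0.157% in wild-type spleen 2, 0.117% in knockout spleen 1 and 0.0379% in knockout spleen 2. The spleen shares varied with the spots counted: in spots where B- and T-cell genes exceeded erythroid plus macrophage genes, called lymphoid here, the share was 0.0437, 0.517, 0.154 and 0.0648% in the same 4 spleens, against 0.00705, 0.0327, 0.0403 and 0.00291% in the other spots. In the spots used, the EDTA section had 0 of its beta UMIs from embryonic genes, which allows up to 0.128% (3 counts). Over all its in-tissue spots it had 2 of 31986.

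**Figure D2:**
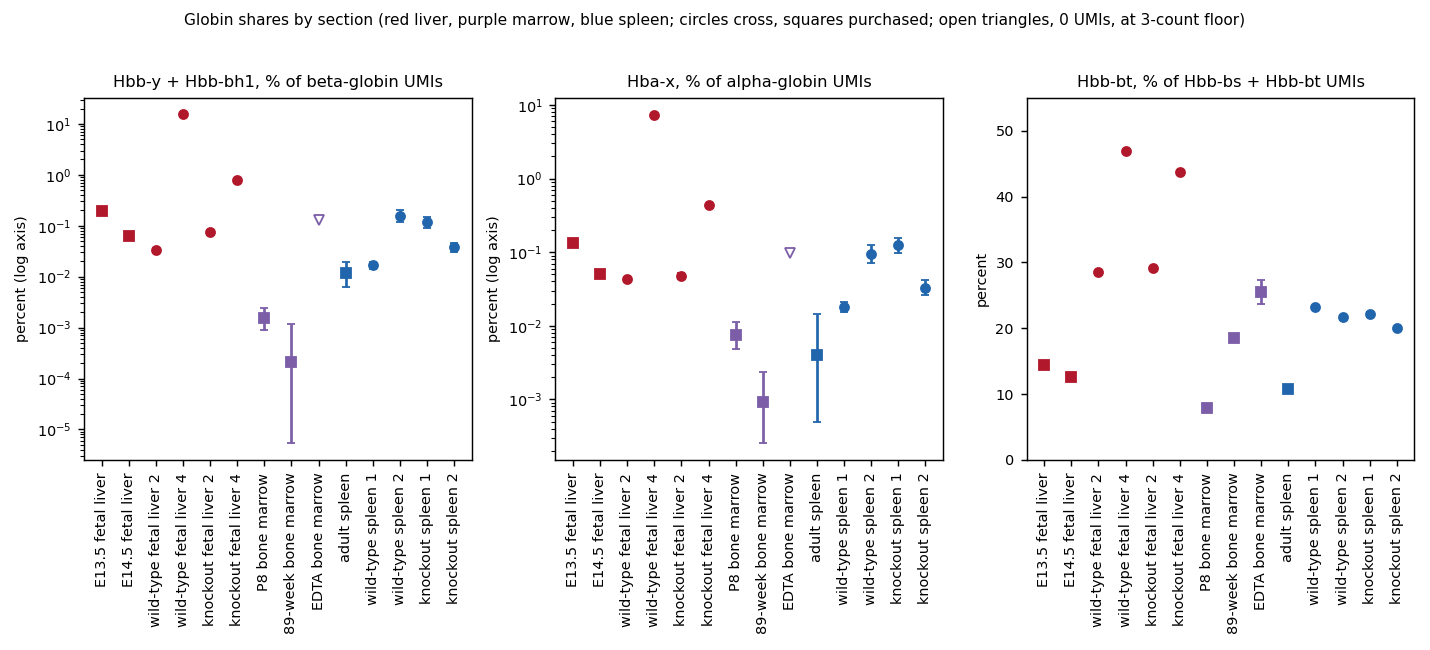
Shares within the globin families in each of the 14 sections, in percent of UMIs with 95% exact intervals: embryonic genes among beta and alpha UMIs on log axes, and Hbb-bt among adult beta UMIs on a linear axis. The embryonic share of beta UMIs was 15.3% in wild-type fetal liver 4 and at most 0.806% in every other section.

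Between E13.5 and E14.5, the stages at which definitive cells take over the blood, the 3 embryonic genes were lower in the later section and the adult genes nearly level. Hbb-y was 4.20-fold, Hba-x 3.12-fold and Hbb-bh1 2.01-fold higher at E13.5. Hba-a2 was 1.16-fold and Hbb-bt 1.08-fold higher, and Hbb-bs was at 0.928 of its E14.5 level. The embryonic share fell from 0.198 to 0.0643%, a gap of 0.133 percentage points without a replicate check at 1 section a stage, against a pooled SD of 7.64 points between replicate E14.5 livers of the cross, most of which comes from wild-type 4.

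The mix of the 2 embryonic beta genes also differed between stages. Hbb-bh1 made up 40.6% of embryonic beta UMIs at E13.5 and 58.7% at E14.5. In the cross livers it made up 26.4% in wild-type 2, 2.98% in wild-type 4, 29.0% in knockout 2 and 49.3% in knockout 4. The UMIs that set wild-type 4 apart were therefore nearly all Hbb-y.

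Outside the hepatocyte-rich area, the adult genes and, in litter 4, Hbb-bh1 were much lower than inside it, and Hbb-y and Hba-x less so. Hepatocyte-poor spots are those under 0.5% hepatocyte UMIs, and 4 livers had at least 20 of them: 130 in wild-type 2, 566 in wild-type 4, 74 in knockout 2 and 220 in knockout 4. Globins are in no list that made these classes. Skeletal muscle genes took 7.05, 0.191, 0.417 and 0.0179% and cartilage and bone genes 0.644, 0.309, 0.906 and 0.234% of UMIs in the hepatocyte-poor spots of wild-type 2, wild-type 4, knockout 2 and knockout 4. A list of 12 erythroid genes without globins took 0.0183 to 0.0673% of UMIs in hepatocyte-poor against 0.445 to 0.832% in hepatocyte-rich spots over the 4 livers.

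The embryonic share of beta UMIs was 79.3% in the hepatocyte-poor and 8.85% in the hepatocyte-rich spots of wild-type 4. It was 5.58% against 0.709% in knockout 4, whose hepatocyte-poor spots still held 13171 adult and 778 embryonic beta UMIs. It was 0.521% against 0.0755% in knockout 2, and 0.191% against 0.0330% in wild-type 2, where it rests on 5 embryonic UMIs. The share was higher in hepatocyte-poor spots in 4 of 4 sections, by 19.0 points on average, with a two-sided exact sign-flip permutation p of 0.125, the smallest that 4 sections allow. These sections come from 2 litters, and with the mean of each litter as the unit the exact sign-flip permutation p was 0.5. The mean rests on wild-type 4, without which it was 1.82 points.

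**Figure D3:**
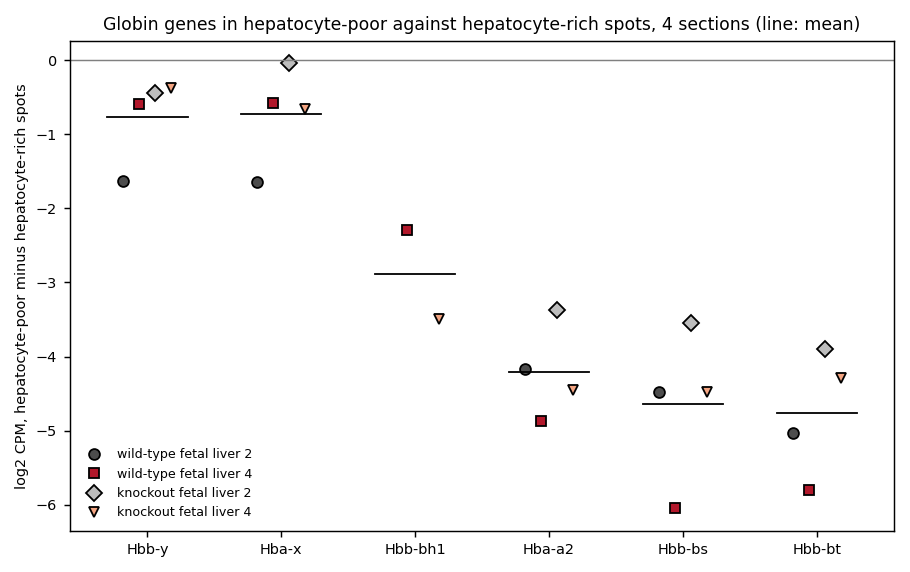
Log2 CPM of each globin gene in hepatocyte-poor minus hepatocyte-rich spots, with a point for each of the 4 cross fetal livers (2 for Hbb-bh1) and a line at the mean. The means were -4.21 to -4.76 for the adult genes and -0.76 and -0.73 for Hbb-y and Hba-x.

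Gene by gene, Hbb-bs was 11.7-fold to 66.2-fold lower in hepatocyte-poor spots over the 4 sections, Hba-a2 10.3-fold to 29.1-fold and Hbb-bt 14.9-fold to 55.9-fold. Hbb-y was 1.30-fold to 3.09-fold and Hba-x 1.03-fold to 3.11-fold lower. In wild-type 2 and knockout 2 these folds rest on 5 and 14 hepatocyte-poor UMIs of Hbb-y and 8 and 15 of Hba-x. In wild-type 4, Hbb-y was at 3993 CPM in hepatocyte-poor and 5998 CPM in hepatocyte-rich spots, and Hbb-bs at 518 and 34302 CPM.

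The log2 difference of Hbb-y between classes was 3.88 ± 1.19 (SD, n = 4 sections) above that of Hbb-bs, positive in 4 of 4 sections, with an exact sign-flip permutation p of 0.125. In litter 4, Hbb-bh1 differed more between the classes than Hbb-y did. It was at 56.6 CPM in hepatocyte-poor and 276 CPM in hepatocyte-rich spots of wild-type 4, a fold of 4.88, and at 20.1 and 226 CPM in knockout 4, a fold of 11.3. In litter 2 the hepatocyte-poor spots held 0 and 1 UMIs of Hbb-bh1, so that no fold was formed.

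The contrast grew with distance from the liver in wild-type 4. Counted in steps between neighbouring spots from the nearest hepatocyte-rich spot, the embryonic beta share was 43.7% at 1 step, 74.8% at 2, 86.6% at 3 to 5, 88.6% at 6 to 10 and 91.1% over 10 steps. Adult beta UMIs went from 64580 CPM in hepatocyte-rich spots to 5661 CPM at 1 step and 570 CPM over 10 steps. Embryonic beta UMIs stayed between 3037 and 6274 CPM over the same bins. The Hba-x share of alpha UMIs reached less, from 4.15% in hepatocyte-rich spots to 55.8% over 10 steps, where Hba-a2 was at 1323 CPM.

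In knockout 4 the share also rose outward, from 0.709% in hepatocyte-rich spots to 3.49% at 1 step, 6.56% at 2 and 10.6% at 3 to 5. There the embryonic CPM was lower outward too, at 410, 311, 232 and 145.4, then 29.1 at 6 to 10 and 61.7 over 10 steps, while adult beta CPM fell from 57331 to 8592, 3306 and 1232. Beyond 5 steps it had 7 spots at 6 to 10 steps and a separate patch of 56 spots over 10 steps, with 117 embryonic and 120 adult beta UMIs, so that 49.4% (95% exact interval 42.8 to 55.9%) were embryonic. In the purchased sections, whose off-tissue spots were deposited, 27.3% and 25.9% of the fetal liver globin UMIs lay off tissue, and the part of such spread in the profile at the liver edge was not tested.

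**Figure D4:**
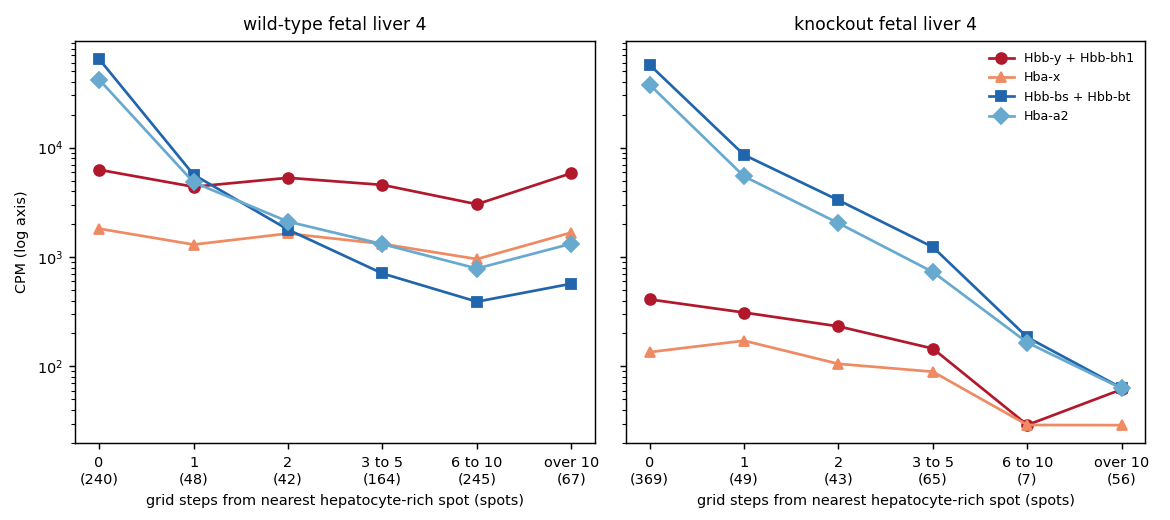
CPM of embryonic and adult globin genes, on a log axis, against the distance in grid steps from the nearest hepatocyte-rich spot in wild-type and knockout fetal liver 4, with the number of spots in brackets. Over 10 steps away in wild-type 4, embryonic beta genes were at 5844 CPM and adult beta genes at 570 CPM.

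Spot by spot, with at least 20 beta UMIs in a spot, the embryonic share in wild-type 4 had a median of 78.4% over 772 spots and embryonic UMIs were the majority in 492 of them. Its median was 87.5% over hepatocyte-poor and 7.06% over hepatocyte-rich spots. Knockout 4 had a median of 0.766% over 484 spots and a majority in 1 spot. In the purchased livers, all of whose spots were hepatocyte-rich, the median was 0.167% at E13.5, with a highest spot of 0.852%, and 0.0566% at E14.5, with a highest spot of 0.633%.

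Neighbouring spots resembled each other in embryonic share to differing degrees. Moran's I, which is near 0 for a share scattered without pattern and near 1 for smooth patches, was 0.937 in wild-type 4 and 0.401 in knockout 4. It was 0.350 at E13.5 and 0.0927 at E14.5 in the purchased livers, and 0.00520 and 0.0771 in wild-type 2 and knockout 2, where the median spot held no embryonic UMI. These values were over all spots used, which in litter 4 lay inside and outside the hepatocyte-rich area and in the purchased livers only inside it. Over hepatocyte-rich spots alone, Moran's I was 0.418 in wild-type 4 and 0.217 in knockout 4. In wild-type 2 and knockout 2 it was then 0.0607 and 0.0617. Depth per spot differed among these sections, with median UMIs of 75701 at E13.5 and 5170 in knockout 2, and its part was not tested.

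**Figure D5:**
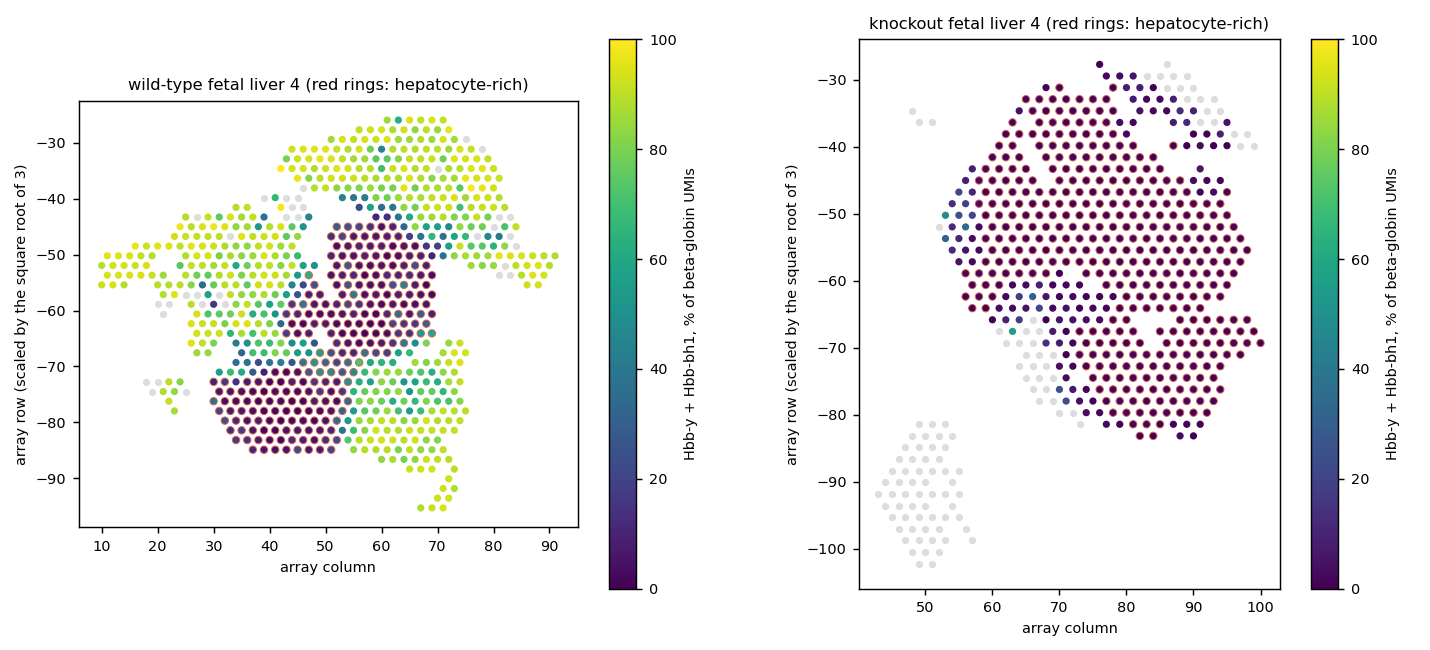
Position of each passing spot in wild-type and knockout fetal liver 4, coloured by the embryonic share of its beta-globin UMIs in percent, with spots under 20 beta UMIs in grey and red rings on hepatocyte-rich spots. Summed over spots, the share was 8.85% inside and 79.3% outside the ringed area of wild-type 4.

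Across spots of a section, the 3 adult genes varied together, as did Hba-x and Hbb-y where they were abundant. Pearson r of normalized values, given as a description over spots that share a library, was 0.839 to 0.992 between Hbb-bs and Hbb-bt and 0.952 to 0.991 between Hba-a2 and Hbb-bs over the 6 fetal livers. Between Hba-x and Hbb-y it was 0.956 in wild-type 4, 0.752 at E13.5, 0.685 in knockout 4 and 0.313 at E14.5, and 0.142 and 0.189 in wild-type 2 and knockout 2, where most spots held neither. Hbb-y and Hbb-bs, of the same cluster, were at 0.0495 to 0.349.

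Hbb-bh1 had a higher r with Hbb-bs than with Hbb-y in all 6 livers, and a higher r than Hbb-y had with each of the 3 adult genes in every liver but wild-type 2. Its r with Hbb-bs was 0.776 in wild-type 4, 0.773 in knockout 4, 0.274 at E13.5 and 0.158 at E14.5, and 0.0635 and 0.0803 in wild-type 2 and knockout 2. In wild-type 2, Hbb-y was at 0.0765 with Hbb-bs. The r of Hbb-bh1 with Hbb-y was 0.573 in wild-type 4, 0.269 in knockout 4, 0.159 at E13.5 and 0.0187 at E14.5. Counts of Hbb-bh1 were low in all of them, at a median of 8 UMIs a spot at E13.5 and 2 in wild-type 4. Hbb-y was also sparse outside wild-type 4, at a median of 9 UMIs at E13.5, 3 in knockout 4 and 0 in wild-type 2. Hbb-bs had medians of 9816, 573 and 539 there. In litter 4, r was taken over spots inside and outside the hepatocyte-rich area, between which Hbb-bh1 and Hbb-bs both differed. The parts of sparse counts and of tissue in these r were not tested.

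In the cross spleens, most embryonic UMIs lay in the lymphoid spots, which were also most of the spots. Hba-x was at 7.92 CPM in lymphoid and 8.20 CPM in the other spots of wild-type spleen 1, and at 11.4 and 13.8 CPM in wild-type spleen 2. In the knockout spleens the lymphoid spots held 71 and 68 UMIs of Hba-x and the other spots 2 and 5. Hbb-bh1 was at 5.92 and 4.71 CPM in wild-type spleen 1, and at 3.53 CPM in lymphoid against 13.0 CPM (5 UMIs) in the other spots of knockout spleen 1. In wild-type spleen 2 and knockout spleen 2 the spots that are not lymphoid held 3 and 1 UMIs of it. The adult genes, which follow the erythroid genes used for the classes, are given as a description: Hba-a2 was at 17132 and 91972 CPM in wild-type spleen 1. With counts this low, whether the embryonic UMIs of the spleens come from red cells or from background was not tested.

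The replicated comparison of a fetal with an adult blood-forming organ was that of the 4 cross livers with the 4 cross spleens, in which stage and organ cannot be told apart. Its tests, the exact ones included, took the 4 livers as independent, although they come from 2 litters, so that their p-values may be too small. With edgeR's quasi-likelihood test over 19180 genes and Benjamini-Hochberg adjustment, 25.6% of all genes were called higher and 21.4% lower in fetal liver at an adjusted p under 0.05 (4914 and 4105 genes, or 3354 and 4731 with upper-quartile scaling). Of the 6 globin genes, 4 were called higher in fetal liver and 0 lower: the 3 embryonic genes and Hbb-bt. All 12 genes of the erythroid list without globins were also called higher in fetal liver. Their median log2 difference was 4.28, beside -0.10 over all genes. The part of erythroid content in the globin differences below was not tested.

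Hbb-bh1 was higher in fetal liver by a log2 fold change of 4.82 (SE 0.726, edgeR adjusted p = 0.000634). Hba-x was higher by 5.55 (SE 0.987, edgeR adjusted p = 0.00164) and Hbb-y by 7.70 (SE 1.60, edgeR adjusted p = 0.00383). Leaving out both litter 4 livers, Hba-x was higher by 3.67 and Hbb-y by 4.83, both still called, as were most of all genes tested.

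Hbb-bt was higher in fetal liver by 3.63 (SE 1.02, edgeR adjusted p = 0.0168), and without wild-type spleen 2, knockout spleen 1 or knockout spleen 2 its adjusted p was 0.0764, 0.0750 or 0.0610. Hbb-bs, at 2.91 (adjusted p = 0.0791), and Hba-a2, at 2.80 (adjusted p = 0.107), did not pass. Wild-type spleen 1 overlapped the litter 4 livers in both. All 6 genes were called with DESeq2, with hepatocyte-rich spots only in the livers, and without both litter 4 livers. DESeq2 called 10049 genes over all, and without litter 4 most of all genes tested were called, as given below. Such calls are therefore not particular to the globin genes.

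As shares over all spots, the tissues overlapped for the embryonic genes. The embryonic share of beta UMIs was 4.05 ± 7.50% (SD, n = 4) in the livers and 0.0822 ± 0.0659% (SD, n = 4) in the spleens, a difference of 3.97 points (two-sided exact permutation p = 0.314). Without both litter 4 livers the difference was -0.0273 points. The Hba-x share of alpha UMIs was 1.98 ± 3.62% against 0.0677 ± 0.0508% (exact permutation p = 0.286), and the difference was -0.0226 points without litter 4. These differences depended on the spleen spots counted. Spots that are not lymphoid were picked in part by erythroid genes, which the adult globins follow, so that the class itself favours a low embryonic share. They held 61, 10, 2 and 5 Hba-x UMIs in wild-type 1, wild-type 2, knockout 1 and knockout 2 spleens, and their p-values are descriptions only. With these spleen spots, an alternative chosen after seeing the data, the embryonic beta difference was 4.03 points (exact permutation p = 0.0571) and the Hba-x difference 1.97 points (exact permutation p = 0.0286, the smallest possible). Without litter 4 these were 0.0342 and 0.0329 points (exact permutation p = 0.267 and 0.133, the latter the smallest that 2 against 4 sections allow).

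The make-up of the adult UMIs did separate the tissues. Hbb-bt made up 28.6, 47.0, 29.2 and 43.8% of adult beta UMIs in wild-type 2, wild-type 4, knockout 2 and knockout 4 livers, and 23.3, 21.6, 22.1 and 20.004% in wild-type 1, wild-type 2, knockout 1 and knockout 2 spleens. The difference of 15.4 points had an exact permutation p of 0.0286, the smallest that 4 against 4 sections allow, and 0.0714 after adjustment over 5 measures. Littermate livers were counted as independent in it. In the purchased sections the Hbb-bt share was 14.4% at E13.5, 12.6% at E14.5, 7.83% at P8, 18.5% at 89 weeks, 25.5% with EDTA and 10.7% in spleen, so that it was lower in the purchased livers than in the cross spleens.

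The log2 ratio of alpha to beta UMIs was -0.12, -0.72, -0.10 and -0.61 in the same 4 livers and 0.22, 0.51, 0.10 and -0.10 in the 4 spleens. The difference of -0.57 also had an exact permutation p of 0.0286, adjusted 0.0714, and the lowest spleen and the highest liver both round to -0.10. The purchased sections were at -1.42, -1.71, -1.80, -0.14, 0.40 and -1.27 for E13.5, E14.5, P8, 89 weeks, EDTA and spleen. The purchased and cross sections have different feature tables, whose part in these ratios was not tested. Hbb-bh1's share of the embryonic beta UMIs did not pass either (26.9 ± 19.0% in livers, 57.8 ± 23.9% in spleens, SD, n = 4 each, exact permutation p = 0.0857).

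The C1qa knockout was compared with the wild type within each organ, the genotype question of the cross. In fetal liver, edgeR called 0% of 18986 genes and none of the 6 globin genes (138 genes had an unadjusted p under 0.05, and 7 were called by DESeq2). Hbb-y was lower in knockouts by -4.36 on the log2 scale (SE 1.85) and Hba-x by -3.11 (SE 1.28), each with an edgeR adjusted p of 1.00. Without wild-type fetal liver 4 both were higher in knockouts, by 1.64 and 0.54.

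The litters went opposite ways. In litter 2, the knockout was 2.72-fold above the wild type for Hbb-y and 1.38-fold for Hba-x, and in litter 4 the wild type was 28.2-fold and 12.1-fold above the knockout. With litter as a block, edgeR called Hba-x lower in knockouts (log2 -1.82, SE 0.387, adjusted p = 0.000636) and not Hbb-y (-1.95, adjusted p = 0.0816). This fit has nearly as many coefficients as sections, and its calls over all genes are given below. With the litters in opposite directions, the Hba-x call does not stand for a change shared by both. In hepatocyte-rich spots with the same block, Hba-x had an adjusted p of 0.127.

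The shares gave no further genotype call. The embryonic share of beta UMIs was 0.441 ± 0.516% in knockout and 7.67 ± 10.8% in wild-type fetal livers (SD, n = 2 each, two-sided exact permutation p = 1.00), and 0.0777 ± 0.0562% and 0.0866 ± 0.0990% in the spleens (exact permutation p = 1.00). All 10 tests of 5 share measures in both organs had an adjusted p of 1.00, and 2 against 2 sections cannot give an exact p under 0.333.

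In spleen, 13.8% of 18895 genes were called higher and 6.79% lower in knockouts (2603 and 1283 genes, or 1197 and 4400 with upper-quartile scaling). Here 1 of the 6 globin genes, Hba-a2, was called lower (log2 -1.42, SE 0.417, edgeR adjusted p = 0.0228). Hbb-bt (-1.25, adjusted p = 0.0573) and Hbb-bs (-1.05, adjusted p = 0.0991) did not pass. The difference rested on wild-type spleen 1. Without it, Hba-a2 was at -0.21 (adjusted p = 0.344), and wild-type spleen 2 was 1.03-fold above knockout spleen 2.

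All 12 genes of the erythroid list without globins were also called lower in the knockout spleens, with a median log2 change of -2.27, beside -0.08 over all genes. There were 586 and 253 spots that were not lymphoid in the wild-type spleens, against 62 and 126 in the knockout spleens. Within those spots none of the 4 globin genes that could be tested was called, and Hba-a2 was at -0.14 (adjusted p = 0.908). The genotype effect was not called different between spleen and liver for any globin gene, with 0% of 19180 genes called (2018 had an unadjusted p under 0.05, and 9 were called by DESeq2).

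Genes known to act on globin switching were counted as a list of 48, of which 45 were tested between fetal liver and spleen. They were called higher in fetal liver for 29 and lower for 2, against 25.6% higher and 21.4% lower over all genes, with a median log2 difference of 1.06, beside -0.10 over all genes. Klf1, the erythroid factor that binds the CACCC box, was higher in fetal liver by 2.78 (SE 0.434, edgeR adjusted p = 0.000768), and Sox6, which represses Hbb-y in definitive cells, by 2.61 (adjusted p = 0.00296). Bcl11a, a repressor of embryonic globins, at 0.28 (adjusted p = 0.392), Zbtb7a, another such repressor, at 0.46 (adjusted p = 0.385), and Myb, at 0.61 (adjusted p = 0.0655), did not pass.

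The RNA-binding fetal genes were among those higher in fetal liver. Igf2bp1 was at 25.04, 157, 45.6 and 189 CPM in wild-type 2, wild-type 4, knockout 2 and knockout 4 livers and at 0.0944 to 0.237 CPM in the spleens. Lin28b was higher in fetal liver by 3.095 (edgeR adjusted p = 0.000114) and Igf2bp3 by 3.67 (adjusted p = 6.02e-06). The livers of litter 4 had the highest Igf2bp1 levels. The switching genes were counted over all passing spots, of which 29.8% in wild-type 4 and 62.6% in knockout 4 were hepatocyte-rich. The part of tissue outside the liver in their levels was not tested.

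Of the others with the smallest adjusted p, Tal1, a partner of Gata1, was higher in fetal liver by 4.12, Hic2, a repressor of Bcl11a, by 2.51, and Dnmt1, the maintenance DNA methyltransferase, by 2.24. Klf2, a relative of Klf1 that acts on embryonic globin genes and is abundant in resting lymphocytes, was lower by -3.78. Of 12 genes of heme synthesis and hemoglobin assembly, 11 were tested, of which 10 were higher in fetal liver and 1, the heme exporter Flvcr1, was lower. Alas2, the first enzyme of heme synthesis in red cells, was higher by 2.30 (edgeR adjusted p = 0.0424), and Ahsp, the alpha-globin chaperone, was not tested.

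In the knockout spleens, 8 of 44 tested switching genes were called higher and 8 lower, against 13.8% higher and 6.79% lower over all genes, where upper-quartile scaling turned the balance. Klf1 was lower by -1.19 (edgeR adjusted p = 0.00398) and Sox6 by -1.30 (adjusted p = 0.00140), as the erythroid list was, and Bcl11a, which B cells also express, was higher by 1.05 (adjusted p = 0.000358). Of the 11 assembly genes 1 was higher and 6 were lower, beside the same shares over all genes, with Alas2 at -1.54 (adjusted p = 0.0150).

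The genes most like Hbb-y in level over the 14 sections, of 11303 compared, were Timm13 (r = 0.951), Usp10 (0.934), Cct3 (0.932), Hmga2 (0.923) and Lsm7 (0.920). For Hbb-bs they were Cdr2 (0.954), Trak2 (0.954), Ranbp10 (0.947), Pigq (0.944) and Gadd45a (0.944). These sections differ in tissue and depth, and no p is given. Over the spots of the 6 fetal livers, Hbb-bs was most like Car2, carbonic anhydrase of red cells, with a median r of 0.893, then Gpx1, Alas2, Slc25a37 and Alb. The same Car2 led for Hbb-y, with a median r of 0.184 in sparse counts.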

How the data were processed

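Sections of formalin-fixed tissue were profiled on Visium V1 slides with the v2 probe set by the authors. The deposited matrices are raw, unnormalized counts of UMIs for each gene in each spot, and the deposited barcode, gene and position tables hold other values such as spot names, gene symbols and in-tissue marks. The submitters' notes name Space Ranger and mm10. The purchased sections list 32589 features and the cross sections 19465, so that the sets were tested apart. Members and gene lists were chosen with earlier results of these data known.

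From these counts, passing spots (in tissue, at least 1000 genes) were summed per section and expressed as CPM or as shares of a globin family. Genotypes and organs were compared with the edgeR 4.0.16 quasi-likelihood test (TMM, filterByExpr) in R 4.3.3 with limma 3.58.1 and, alternatively, with DESeq2 1.42.0. A gene was called at a p under 0.05 after Benjamini-Hochberg adjustment over all genes. Shares were compared with two-sided exact permutation tests over sections, those of Hbb-bt, Hbb-bh1 and the alpha to beta ratio, and the gene-wise tests between spot classes, having been added after seeing the data. Purchased groups have 1 section and no test. P-values measure the spread between sections, and intervals cover counting error only. Fetal liver numbers name litters, per the study, and deviations from genotype means correlated at 0.644 over 18986 genes between littermates. Replicate sections were not duplicates (lowest chi-square per degree of freedom 21.8). On simulated counts with 2-fold changes in 200 genes at a dispersion of 0.03, 47.5%, 39.5% and 93.5% were recovered for the fetal liver, spleen and organ comparisons. The fitted dispersions were 0.263, 0.0245 and 0.157. Named genes were the 6 members, 7 set switching genes (Klf1, Bcl11a, Sox6, Zbtb7a, Myb, Lin28b, Igf2bp1) with 5 more of smallest adjusted p between organs, Ahsp and Alas2, and the 5 genes most like Hbb-y and Hbb-bs. Flvcr1 was named after its value was seen.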

Additional observations from a re-analysis of the deposited data

Results flagged for a closer look

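Globin UMIs were also counted on spots outside the tissue, which the comparisons above do not use and which were deposited for the 6 purchased sections. Of all globin UMIs, 27.3% lay off tissue in the E13.5 fetal liver, 25.9% in the E14.5 fetal liver, 30.8% at P8, 47.8% at 89 weeks, 6.09% in the EDTA section and 39.0% in the adult spleen. In the adult spleen 31.1% of all UMIs lay off tissue, a lower proportion than of globin UMIs. Hbb-bs was at 9805 CPM off and 7000 CPM in tissue there. In the other sections all UMIs were off tissue in similar proportion to globins, from 7.57% in the EDTA section to 49.9% at 89 weeks.

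In the E13.5 section Hbb-y was at 181 CPM off and 170 CPM in tissue, Hbb-bh1 at 125 and 116 CPM, and Hbb-bs at 128857 and 123686 CPM. In the E14.5 section Hbb-y was at 57.2 CPM off and 40.5 CPM in tissue, and the embryonic share of beta UMIs was 0.0821% off (95% exact interval 0.0789 to 0.0854%) and 0.0643% in tissue (0.0626 to 0.0660%). Hbb-bh1 made up 48.7% of the embryonic beta UMIs off tissue there and 58.7% in tissue. At P8, 18 embryonic beta UMIs off tissue gave a share of 0.00363%, against 0.00152% in the spots used. In the 89-week section, 4 Hbb-y UMIs lay off tissue and 0 in tissue.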

How the results depend on the processing

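In CPM, the 3 embryonic genes were called higher in fetal liver than in spleen under every alternative run, and genotype results depended on single sections. In fetal liver, the count of globin genes called between genotypes was 0 and became 1 with litter as a replicate block, and 0 to 1 leaving out each replicate. Over all genes, 0 calls became 157 with the block, 109 without wild-type replicate 2, 103 without wild-type replicate 4, 27 in hepatocyte-rich spots with the block and 7 with DESeq2. Log2 changes leaving out each replicate ran from -0.96 to 1.35 for Hbb-bt, -1.74 to 2.29 for Hbb-bs, -1.07 to 2.70 for Hbb-bh1, -5.35 to 1.64 for Hbb-y, -4.05 to 0.54 for Hba-x and -1.87 to 2.34 for Hba-a2. In hepatocyte-rich spots Hbb-bt was at -0.13, Hbb-bs at -0.0051 and Hbb-bh1 at -0.47, and with the block Hbb-bt was at -0.24, Hbb-bs at -0.17 and Hba-a2 at -0.19. The cause was not tested.

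In spleen, the count of 1 called globin gene became 0 with DESeq2, in the joint fit of 8 sections and in spots that are not lymphoid, 2 without a filter on low counts, and 3 with upper-quartile factors, and ran from 0 to 3 leaving out each replicate. The replicate block gave 2 calls, but spleen numbers are not stated to name litters and same-numbered deviations correlated at 0.0343. Over all genes, 3886 calls became 240 without knockout spleen 2, 591 in spots that are not lymphoid and 0 in the joint fit. Ranges leaving out each replicate were -2.101 to 0.27 for Hbb-bt, -2.03 to 0.37 for Hbb-bs, -0.54 to 0.016 for Hbb-bh1 and -1.90 to 1.46 for Hbb-y, and spots that are not lymphoid gave 0.054 for Hbb-bt and 0.17 for Hbb-bs. The interaction called no globin gene under any alternative, and 1409 genes with the litter of the livers as replicate block, against 0. Its ranges were -2.57 to 0.19 for Hbb-bt, -3.31 to 0.66 for Hbb-bs, -3.01 to 0.81 for Hbb-bh1, -2.41 to 5.87 for Hbb-y, -1.14 to 3.48 for Hba-x and -3.72 to 0.42 for Hba-a2.

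Between organs, 3 to 6 globin genes were called leaving out each replicate. Over all genes, 9019 calls became 14072 without litter 4, 5754 without wild-type spleen 1 and 5904 without wild-type spleen 2. With upper-quartile factors the median log2 difference over all genes went from -0.10 to -0.50 and no globin gene changed direction. With spleen spots that are not lymphoid, the Hba-x share difference was 1.97 points (exact permutation p = 0.0286), in a class that itself favours a low embryonic share. Without both litter 4 livers, the difference in embryonic share was -0.0273 points, in Hba-x share -0.0226 points, in Hbb-bt share 7.11 points and in the log2 ratio of alpha to beta -0.29, and a mean over spots gave -0.48 for that ratio. Leaving out each replicate gave 12.1 to 18.2 points for the Hbb-bt share and -0.66 to -0.46 for the ratio, where 3 against 4 sections cannot reach the threshold.

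Between genotypes of fetal liver, ranges leaving out each replicate were -14.9 to 0.408 points for the embryonic share, -7.16 to 0.2004 for the Hba-x share, -10.5 to 7.91 for the Hbb-bt share and -0.24 to 0.36 for the ratio. In spleen they were -0.0789 to 0.0611 for the embryonic, -0.0232 to 0.0690 for the Hba-x and -25.9 to 31.7 for the Hbb-bh1 share. The spleen embryonic share gave 0.0463 as a mean over spots and 0.00175 in spots that are not lymphoid, where the Hba-x share gave -0.0100 and the Hbb-bh1 share -8.04. With hepatocyte-rich spots counted from 2% of UMIs, 6 of 6 fetal livers had a higher embryonic share in the poorer spots, by 1.64 points on average (exact sign-flip permutation p = 0.03125, the smallest possible). With littermates averaged, which leaves 4 litters, it was 1.24 points (exact sign-flip permutation p = 0.125, the smallest that 4 allow). Leaving out each replicate gave 1.82 to 25.2 points at the main limit. Means over spots gave no value for the Hbb-bh1 share. Embryonic genes had few UMIs outside fetal liver, which limits every ratio there.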

Other observations

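Other genes of the 2 clusters were also read. Hbq1b, a theta-type alpha gene of the same cluster as Hba-x, was at 87.7 CPM at E13.5 and 99.9 CPM at E14.5 in the purchased livers and at 30.6, 16.4, 36.2 and 36.8 CPM in wild-type 2, wild-type 4, knockout 2 and knockout 4 livers. It was at 34.9 CPM at P8, 24.8 CPM at 89 weeks and 3.07 CPM in the purchased spleen, and from 4.87 to 24.0 CPM in the cross spleens, highest in wild-type 1. Wild-type fetal liver 4 was the lowest of the livers, and knockout 4 the highest of the cross livers. Hbq1a was at most 11.8 CPM in any section. Hbb-bh2 was at 4.71 to 14.4 CPM in the cross spleens and 1.53 to 6.54 CPM in the cross livers.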
